A study of Drosophila melanogaster with 8 samples.

Results

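Open chromatin was described around the cuticle protein genes of Drosophila melanogaster whose symbols begin with Cpr and a digit, Twdl, or Lcp and a digit. The rule found 110 of the 13962 protein-coding genes of the RefSeq table for dm6, of which 70 were Cpr genes, 15 Lcp genes and 25 Twdl genes. They lie on 2L (6 genes), 2R (27), 3L (45), 3R (24) and X (8). When neighbours no more than 50 kb apart were joined, they formed 43 loci: 16 clusters with 83 genes and 27 genes that stand alone. A peak or region was assigned to a gene when its centre lay within 2 kb of the gene body, so a feature can be counted for several genes of a cluster and can also lie in or beside an unrelated gene. The gene table gives no strand, so each distance is from a feature's centre to the nearer end of the gene body, on either side.

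The data come from FAIRE-seq, in which fixed chromatin is extracted with phenol and the DNA that stays soluble, largely free of nucleosomes, is sequenced. All 8 libraries were made from tissues of female wandering third-instar larvae at −6 h relative to puparium formation (APF), with at least 40 tissues dissected per library. The 4 groups of 2 libraries were EcR-RNAi wing discs, wild type (WT) wing discs, WT leg discs and WT salivary glands. EcR-RNAi wings were yw/yw on the first chromosome. They carried Vg-GAL4 with UAS-Flp and the flip-out cassette Tub>>CD2>>GAL4 on the next, and a UAS-GFP transgene across from UAS-EcR-RNAi[104]. In that design, cells that have expressed Vg-GAL4, and their descendants, switch on tubulin-driven GAL4 and with it GFP and an RNA hairpin against the ecdysone receptor gene EcR; any other cell of the disc was collected as well. The 3 WT groups were +/+; +/+; +/+, so the groups of the RNAi comparison also differ in the drivers, GFP and stock that the WT wing lacks. The peak names of the gland carry another prefix than those of WT wing and leg, so whether it is the same stock is not known here.

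Insect cuticle is built from chitin fibres and proteins that the underlying epidermis secretes towards its outer surface. Most Cpr proteins and the larval cuticle proteins (Lcp) carry the Rebers and Riddiford consensus, a chitin-binding domain, while Tweedle (Twdl) proteins form a separate, insect-specific family of cuticle proteins. Steroid hormone pulses time the cuticle genes in sets for each stage: larval epidermis makes Lcp proteins for the larval cuticle, and imaginal discs begin to make pupal cuticle after the puparium has formed. The salivary gland is a secretory tissue that makes glue for the pupal case.

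The deposited files hold 1 peak list per group, called on merged libraries, and 4 tables of DESeq2 comparisons over 1 shared set of 13008 regions, with no value per library. The spread between the 2 libraries of a group is therefore seen only through the standard error (SE) of each fold, and sequencing depth is unknown. The labels do not say whether the 2 libraries of a group stem from separate crosses, so the p-values cover only how these libraries vary, a spread that may be technical. In bulk tissue, more cells with an open site and a more open site in each cell cannot be told apart. A call needed an adjusted p below 0.05 together with a log2 fold change of 1 or more in either direction.

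The tissue labels were set against marker genes. In the authors' deposited table of wing against leg, 10 of 29 regions at wing disc markers (vg, nub, salr, bs, mirr) were higher in wing and 1, at nub, in leg. Of 31 regions at leg disc markers (Sp1, btd, H15, disco-r, bab2), 10 were higher in leg and 0 in wing in the authors' deposited table, where 23 and 0 had an unadjusted p under 0.05 in DESeq2. Of 20 regions at salivary gland markers (fkh, Sgs4, CrebA, toe, Pgant4), 7 were higher in the gland and 1 in the wing in the authors' deposited table of wing against gland. The shares over all regions there were 12.7% higher in the gland and 21.1% in the wing. Knockdown of EcR was not measurable here, since no RNA was assayed. The strongest call at EcR itself, 2R:6093263-6094021, had a log2 fold of −2.24 (SE 0.23), taken as WT wing over EcR-RNAi wing in the table the authors deposited, which is higher in EcR-RNAi wing.

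Peaks near cuticle protein genes were common in the discs and rare in the gland. A peak centre lay within 2 kb of 50 of the 110 genes (45.5%) in EcR-RNAi wing, 81 (73.6%) in WT wing and 75 (68.2%) in WT leg, but of only 20 (18.2%) in the gland. The same share over all protein-coding genes was 64.4%, 76.7%, 75.5% and 65.6% in that order of tissues. Cuticle protein genes are short, with a median length of 1009.5 bp against 2160 bp over all genes, and a short gene offers a smaller window. Among 3693 protein-coding genes with a length between the quartiles of the members' lengths (736.25 to 1593.25 bp), the shares were 51.8%, 67.4%, 65.7% and 55.3%. In the full lists the cuticle genes thus had peaks somewhat more often than genes of their length in both WT discs and far less often in the gland, differences with no test here because neighbouring genes share peaks.

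**Figure D1:**
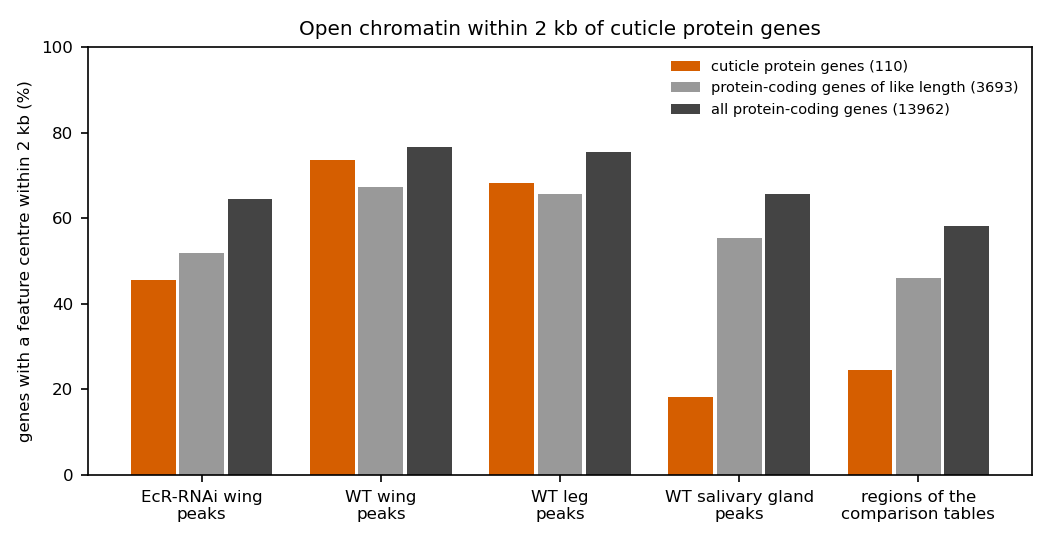
Bars give the percent of genes with a peak or comparison region centred within 2 kb, for the 110 cuticle protein genes, 3693 protein-coding genes of like length and all 13962 protein-coding genes. The bar of the cuticle protein genes is at 18.2% in the gland, against 55.3% and 65.6% for the other gene sets.

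The lists differ in length, EcR-RNAi wing having 18464 peaks, WT wing 29283, WT leg 26754 and the gland 16840. Of these, 79, 125, 105 and 27 lay at cuticle protein genes. When each list was held to its 16840 peaks of smallest q-value, a peak lay at 48 members (43.6%) in EcR-RNAi wing, 43 (39.1%) in WT wing, 49 (44.5%) in WT leg and 20 (18.2%) in the gland. At equal length the EcR-RNAi wing list therefore reached no fewer members than the WT wing list, while the gland stayed lowest. Over all protein-coding genes that choice gave 62.5%, 60.2%, 62.5% and 65.6%, and over genes of like length 49.8%, 46.3%, 49.4% and 55.3%. With a −log10 q of at least 5, the shares were 32.7%, 39.1%, 49.1% and 10% for the members against 46.5%, 46.5%, 51.4% and 47.4% at like length. With the weaker peaks left out, the members were therefore below genes of their length in the discs as well, by much less than in the gland.

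Lcp genes had peaks less often than Cpr and Twdl genes in both WT discs, with no test of that difference. Of the 70 Cpr genes, 36 had a peak in EcR-RNAi wing, 56 in WT wing, 52 in WT leg and 15 in the gland. Of the 15 Lcp genes, 7, 6, 6 and 3 did. Of the 25 Twdl genes, 7 had a peak in EcR-RNAi wing against 19 in WT wing, with 17 in WT leg and 2 in the gland. In all, 89 members had a peak in at least 1 disc list, 70 had one in both WT discs, and 15 had none in any list.

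A small group had a peak within 2 kb in every list, though not always at the same site. Cpr23B, Cpr31A, Cpr47Ea, Cpr47Eg, Cpr51A, Lcp9, Cpr73D and Cpr97Ea had a peak in all 4 lists. At Cpr97Ea the EcR-RNAi wing peak (3R:27082866-27083040) and the gland peak (3R:27088470-27088558) did not overlap. Comparison regions with a gland peak lay in CG2975 near Cpr23B, in Pen near Cpr31A and in Vhl near Cpr47Eg. The one near Lcp9 was nearest to CG3594, and the one in Cpr73D lay also in Ogdh. Others with a gland peak lay in the body of Cpr47Ea and 193 bp from Cpr51A, each with that member as the nearest gene. A further 6 members had a peak in the gland and in no disc list, a count not taken over all genes. They were Lcp2, Lcp3, Cpr78Ca, TwdlD, Cpr11A and Cpr11B. TwdlD, a Tweedle gene in which mutations change body shape, had the strongest of these: a gland peak at 3R:26642547-26642788, 1613.5 bp from the gene body, with a fold enrichment of 6.19 over the caller's local background (91.1st percentile of the gland list). Fold enrichments of peaks are the authors' own values and were ranked only within a list. The gland peak that Lcp2 and Lcp3 share, at 2R:8434884-8435099, had a fold of 4.34 (62.7th percentile), and those of Cpr11A (2.46), Cpr78Ca (2.87) and Cpr11B (3.14) were at or below the 25.1st percentile.

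Peaks of the cuticle genes were of middling strength in their lists. The median fold enrichment of member peaks was 3.05 in EcR-RNAi wing, 2.62 in WT wing, 2.75 in WT leg and 3.73 in the gland, against 3.39, 2.82, 2.97 and 3.82 over all peaks of the same lists. The median member peak stood at the 39.7th, 39.9th, 38.9th and 47.6th percentile. The strongest of each list were a leg peak 545 bp from Cpr12A (X:13542847-13543349, fold 11.7, 98.3rd percentile), a wing peak 1083 bp from Cpr65Ec (3L:7094608-7095240, fold 9.08, 98.1st percentile), an EcR-RNAi wing peak 266 bp from Cpr92F (3R:20669073-20669537, fold 6.68, 95.2nd percentile) and a gland peak 895.5 bp from Cpr23B (2L:2840286-2840599, fold 6.52, 93.5th percentile).

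Few of the disc peaks at cuticle genes overlapped a gland peak. Of the 125 member peaks in WT wing, 8 (6.4%) overlapped a gland peak by at least 1 bp, against 23.2% of all WT wing peaks. The share was 7 of 105 (6.67%) in WT leg, against 26.3% of all WT leg peaks, and 8 of 79 (10.1%) in EcR-RNAi wing, against 42.3%. Read from the gland, 10 of 27 member peaks (37.0%) overlapped an EcR-RNAi wing peak, 9 (33.3%) a WT wing peak and 8 (29.6%) a WT leg peak, against 51.7%, 44.7% and 45.4% of all gland peaks. Between the 2 WT discs, 80 of 125 wing peaks (64%) overlapped a leg peak and 81 of 105 leg peaks (77.1%) a wing peak, where all peaks gave 74.1% and 81.8%. Of the EcR-RNAi wing peaks, 55 of 79 (69.6%) overlapped a WT wing peak, and 56 of 125 WT wing peaks (44.8%) overlapped one of EcR-RNAi wing; all peaks gave 79.1% and 50.6%.

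Many of the WT disc peaks lay on the cuticle genes themselves rather than beside them. The centre was inside a member's body for 63 of 125 peaks (50.4%) in WT wing and 52 of 105 (49.5%) in WT leg, but for 18 of 79 (22.8%) in EcR-RNAi wing and 7 of 27 (25.9%) in the gland. At genes of like length the share was 32.4% for WT wing, 30.2% for WT leg, 17% for EcR-RNAi wing and 24.7% for the gland. The gene-body peaks were mostly weak ones. With a −log10 q under 5, 46 of 65 WT wing peaks (70.8%) and 32 of 44 WT leg peaks (72.7%) were in a member's body, against 41.6% and 39.2% at genes of like length. With a −log10 q of at least 5, it was 17 of 60 (28.3%) and 20 of 61 (32.8%), against 23.1% and 24.5%. These shares have no replicate check, as each list was made on merged libraries. Genes of like length were not matched for clustering, and 83 of the 110 members lie in clusters. What closely packed gene bodies add to the in-body shares was not tested.

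The largest Twdl cluster is an example of weak peaks on gene bodies. It holds 12 genes from TwdlM to TwdlD over 21.9 kb of 3R (26619118-26641054). In WT wing, 6 peaks lay at 9 of the genes, all inside gene bodies, with fold enrichments of 2.02 to 2.66. In WT leg, 4 peaks lay at 8 genes, again all in gene bodies, with folds of 2.61 to 2.82. TwdlB, TwdlO and TwdlN each held a peak in both WT discs, for instance the TwdlB peaks at 3R:26622636-26622825 in WT wing and 3R:26622649-26622817 in WT leg. EcR-RNAi wing had no peak in the cluster, and the gland had only the one beside TwdlD. The WT wing peaks were weak, between the 3.12th and 42.5th percentiles, and no region of the comparison tables fell here, so the absence of EcR-RNAi wing peaks has no test.

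**Figure D2:**
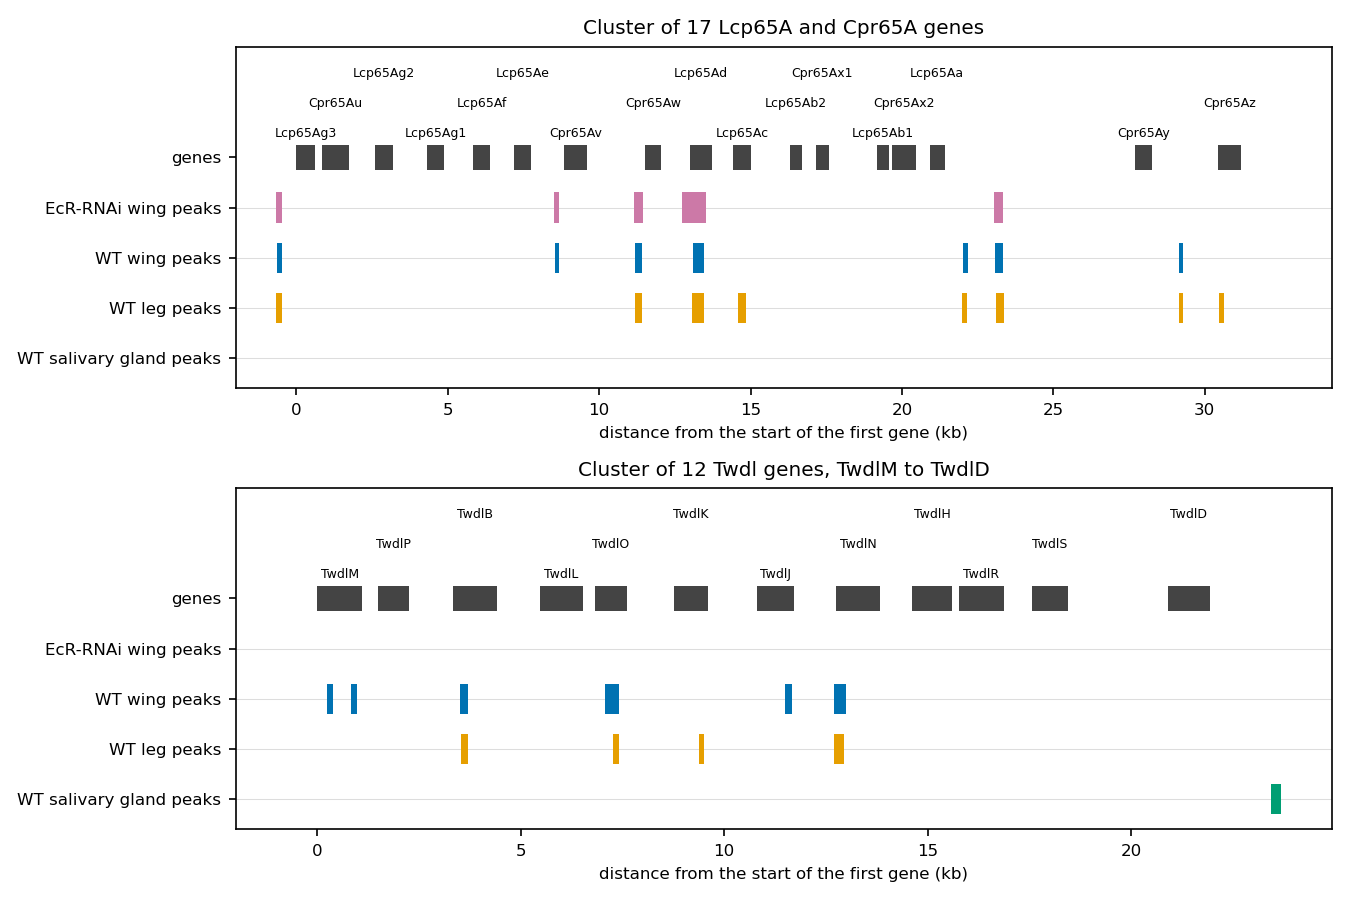
Gene bodies (dark) and peaks of each list (coloured) are drawn to scale in 2 clusters, with the x axis in kb from the start of the first gene. In the upper map, the Lcp65A and Cpr65A cluster, the discs share most peaks and the gland row is empty; in the lower map WT wing and WT leg have peaks inside Twdl genes, the EcR-RNAi wing row is empty and the gland has 1 peak beside TwdlD.

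Of the other Twdl genes, TwdlF, TwdlG and TwdlV (3R:4247020-4255833) had a peak within 2 kb in EcR-RNAi wing and in both WT discs, with top folds of 2.48 in EcR-RNAi wing, 3.33 in WT wing and 3.41 in WT leg. The 4 genes from TwdlX to Twdlalpha on X had no EcR-RNAi wing peak; WT wing and WT leg each had peaks at 2 of them, with top folds of 2.61 and 2.92, and the gland had a weak one at Twdlalpha (fold 3.09, 23.0th percentile). TwdlR, TwdlS and TwdlZ had no peak in any list.

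The largest cluster holds 17 Lcp65A and Cpr65A genes over 31.2 kb of 3L (6130386-6161589). Peaks lay at 8 of them in EcR-RNAi wing, 11 in WT wing, 11 in WT leg and 0 in the gland. The 3 discs shared peaks beside Lcp65Ag3, Cpr65Aw and Lcp65Aa and on Lcp65Ad. The strongest were on Lcp65Ad in EcR-RNAi wing (fold 4.99, 80.2nd percentile) and in WT leg (4.68, 78.5th), and beside Lcp65Aa in WT wing (4.85, 82.1st). Lcp65Af, Lcp65Ag1, Lcp65Ag2, Cpr65Ax1 and Lcp65Ab1 had no peak. Several genes here are near-identical copies (Lcp65Ab1 and Lcp65Ab2, Lcp65Ag1 to Lcp65Ag3, Cpr65Ax1 and Cpr65Ax2), and how reads were shared among such copies is not given in the sources used here, so their values are uncertain.

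Among the Cpr clusters on 2R, the 7 genes from Cpr47Ea to Cpr47Eg had peaks at 3 genes in EcR-RNAi wing, 7 in WT wing, 6 in WT leg and 2 in the gland. The top peaks there were at Cpr47Eg in EcR-RNAi wing (fold 4.12), WT wing (3.59) and the gland (5.52), and beside Cpr47Ed in WT leg (5.42, 83.0th percentile). The 8 genes from Cpr49Aa to Cpr49Ah had peaks at 2, 6, 6 and 0 genes, and the top peak of each disc list was the one 993 to 1082.5 bp from Cpr49Ah, with folds of 6.59 in EcR-RNAi wing, 6.91 in WT wing and 7.85 in WT leg. Both Cpr50C genes had peaks in each disc list (top folds 3.48, 3.06 and 2.5) and none in the gland. The Lcp1 to Lcp4 cluster of larval cuticle genes (2R:8430115-8438495) had no WT disc peak; EcR-RNAi wing had 1 beside Lcp1 (fold 2.78, 29.7th percentile).

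On 3L, the clusters Cpr64Aa to Cpr64Ad and Cpr76Ba to Cpr76Bd, of 4 genes each, had peaks at 2 genes in EcR-RNAi wing, at all 4 in WT wing and WT leg, and at 0 in the gland. Their top folds were 2.40, 3.39 and 4.1 at Cpr64Aa, and 2.35, 4.01 and 3.58 at Cpr76Bc, in EcR-RNAi wing, WT wing and WT leg. Cpr67Fa1, Cpr67Fa2 and Cpr67Fb had peaks in WT wing and WT leg but in neither of the other lists; the top one, on Cpr67Fa2, had a fold of 3.64 in WT wing (70.2nd percentile) and 3.76 in WT leg (69.1st). Cpr67Fa1 and Cpr67Fa2 are also near-identical copies. Cpr72Ea had a peak 841 to 868.5 bp from its body in the 3 disc lists, with folds of 4.34 in EcR-RNAi wing, 4.65 in WT wing and 4.04 in WT leg. The Cpr78C cluster had 1 of 3 genes with a peak in each list, and never the same gene in the gland (Cpr78Ca) as in the discs.

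Clustered and solitary genes differed most in the gland. Of the 83 genes in clusters, 41.0% had a peak in EcR-RNAi wing, 72.3% in WT wing, 69.9% in WT leg and 10.8% in the gland. Of the 27 solitary genes, which are longer (median 1378 bp against 908 bp), the shares were 59.3%, 77.8%, 63.0% and 40.7%. A comparison region lay at 19.3% of clustered and 40.7% of solitary genes. Peaks of unrelated neighbours are counted here: with a member as the nearest gene, members with a gland peak fell from 20 to 8. The part of such neighbours in the difference between clustered and solitary genes was not tested.

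The comparison tables cover few of these genes. A region was centred within 2 kb of 27 members (24.5%), against 58.2% of all protein-coding genes and 46.0% of genes of like length. There were 39 such regions: 15 members had 1, 8 had 2, 3 had 3 and Cpr12A had 4, with 3 regions counted for more than 1 member. Every region tagged as open in a disc overlapped one of the 7500 peaks of smallest q in that disc's list, and 1 region that overlapped such a leg peak was not tagged. In the gland, 678 of 6586 tagged regions overlapped no peak of the deposited gland list and 71.5% overlapped its top 7500, so the gland list and the gland tags do not match, and statements on gland peaks hold for the deposited list. Of the weak peaks on gene bodies described above, 0 of 46 in WT wing and 2 of 32 in WT leg overlapped a comparison region, so the tables do not test them. Of the 39 regions, 10 were centred in a member's body, 26 had a member as the nearest gene and 11 lay in the body of an unrelated gene. Their mean normalized count was 30.3 to 366 with a median of 144, against a median of 120 over all regions.

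In total, 21 of the 39 regions, at 14 genes, were called in at least 1 of the 4 tables, all in contrasts between tissues. The share of all 13008 regions called in at least 1 table was not counted. In wing against gland alone, 21.1% of all regions were higher in wing and 12.7% in the gland. The 3 tables with WT wing share its libraries, and both gland tables share the gland libraries, so the counts of different tables are not independent.

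**Figure D3:**
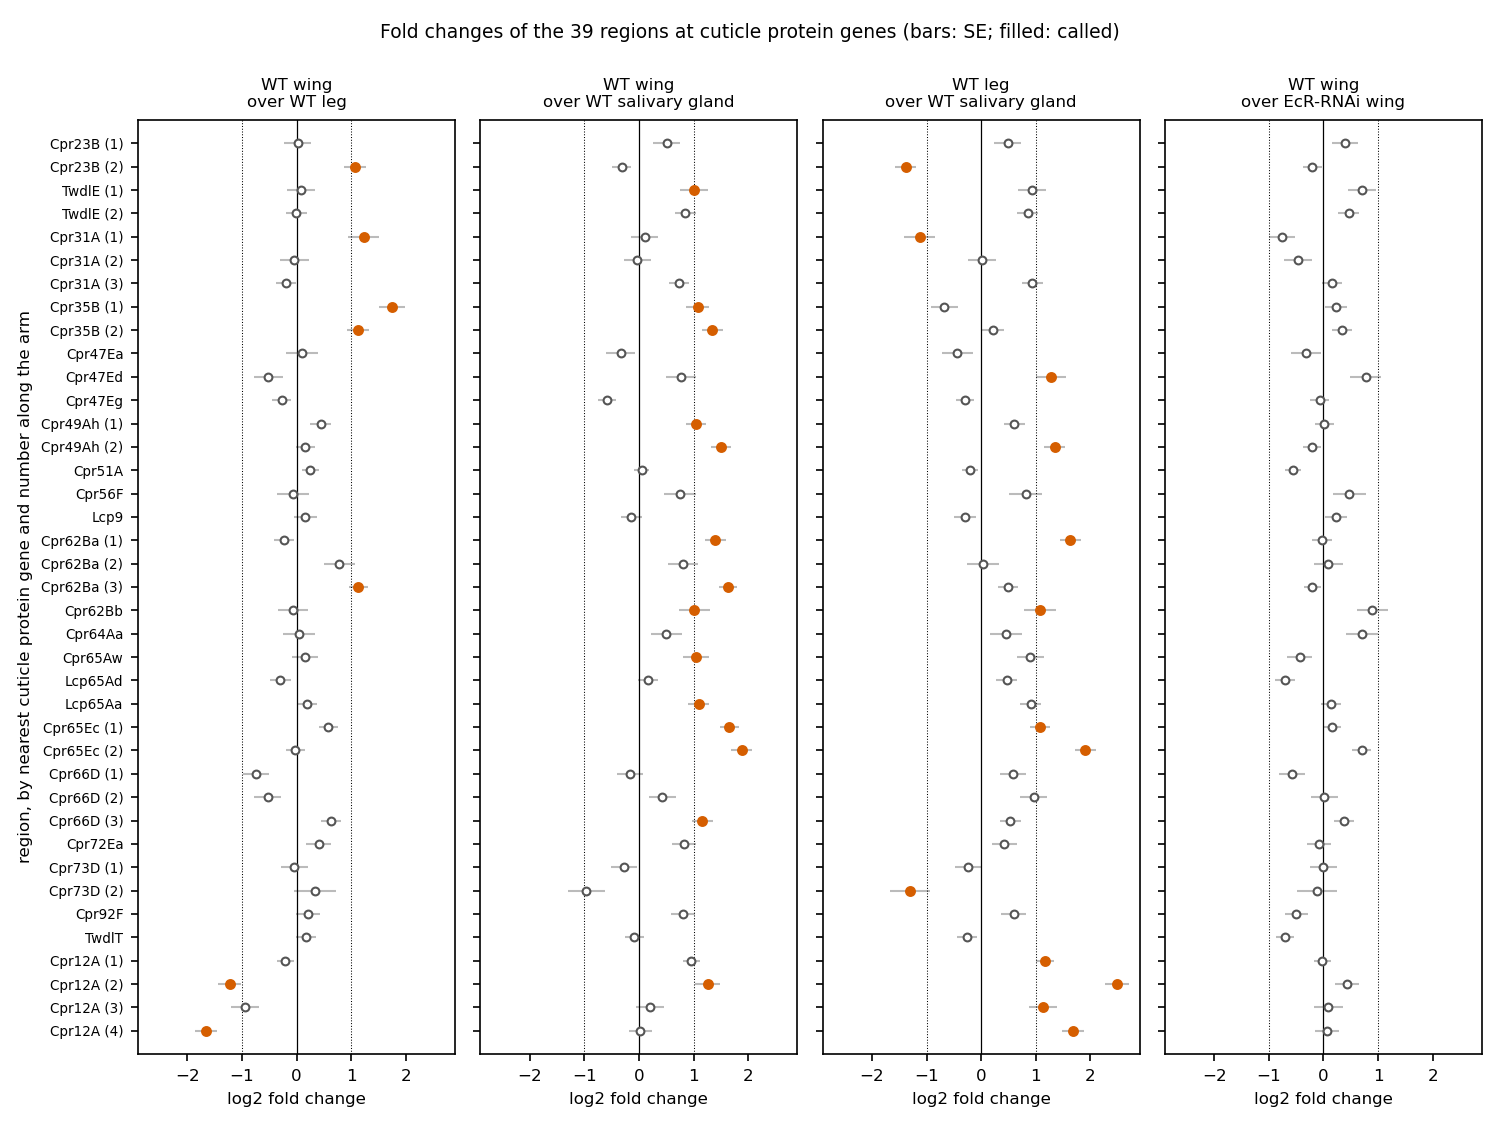
Each row is 1 of the 39 regions, named by its nearest cuticle protein gene, with the log2 fold change and SE of the 4 comparison tables; filled points were called and dotted lines mark a log2 fold of 1 in either direction. Filled points lie on both sides in wing over leg, to the right in wing over gland, mostly to the right in leg over gland, and none appears in WT wing over EcR-RNAi wing.

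Between wing and leg discs, a few Cpr loci differed, in both directions. Of 38 regions with an adjusted p, 5 (13.2%) were higher in wing, at Cpr23B, Cpr31A, Cpr35B and Cpr62Ba, and 2 (5.26%) were higher in leg, both at Cpr12A, in the authors' deposited table. Over all regions 2.04% were higher in wing and 2.21% in leg. No Lcp or Twdl region was called among 3 each, and none of those 6 had a p under 0.05 before adjustment in the authors' deposited table. The median log2 fold over the 39 regions was 0.08, against −0.03 over all regions. Without the 4 regions of Cpr12A, 5 calls in wing and 0 in leg remained.

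Cpr35B, a lone gene on 2L (14424315-14425189), had 2 regions higher in wing, one of them with the largest wing over leg fold of the 39. Both lie on the same side of the gene, in windows with no nearer gene. The region 562.5 bp from the gene, 2L:14425486-14426017, was 3.36-fold higher in wing than in leg (log2 fold 1.75, SE 0.24, adjusted p 2.1e-10, the authors' deposited table). The next, 2L:14426285-14427212, was 2.18-fold higher in wing (log2 fold 1.12, SE 0.19, adjusted p 5.2e-07, the authors' deposited table). WT leg had no peak under the first of these and a shorter one under the second, while EcR-RNAi wing and WT wing had peaks under both. Against the gland both were higher in the wing too, by the authors' deposited table, with log2 folds of 1.08 (SE 0.21) and 1.34 (SE 0.19), and neither was called between leg and gland.

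Cpr12A, a lone gene on X (13543643-13544907), was the locus called towards the leg. Its 4 regions lie on the lower-coordinate side of the gene and over its body. The region centred in the gene body, X:13544334-13545249, had a log2 fold of −1.65 in wing over leg (SE 0.20, adjusted p 2.0e-13, the authors' deposited table), which is 3.14-fold higher in leg. The region 545.5 bp from the gene, X:13542846-13543349, had a log2 fold of −1.22 (SE 0.21, adjusted p 5.4e-07), and the region 4 bp from the gene body had −0.94 (SE 0.26, adjusted p 0.0052), short of the fold threshold, in the authors' deposited table. The most distant region was close to equal, with a log2 fold of −0.20 (SE 0.16) in the authors' deposited table. The regions called higher in leg were thus the gene body and a near flank, and not the most distant of the 4; the difference among them was not tested.

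Cpr62Ba, Cpr31A and Cpr23B each had 1 region higher in wing beside others that were not called. The called region of Cpr62Ba lies inside that gene, 3L:1827706-1828645, with a log2 fold of 1.13 in wing over leg (SE 0.17, adjusted p 6.1e-09, the authors' deposited table). The region outside the gene, in GV1, had a log2 fold of −0.23 (SE 0.19) in the authors' deposited table. At Cpr31A the region 164 bp from the gene body, 2L:10053755-10054343, had a log2 fold of 1.23 (SE 0.29, adjusted p 5.3e-04, the authors' deposited table). At Cpr23B the region 2L:2839967-2840697, which lies in the neighbouring gene CG2975, had a log2 fold of 1.07 (SE 0.20, adjusted p 7.8e-06, the authors' deposited table).

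**Figure D4:**
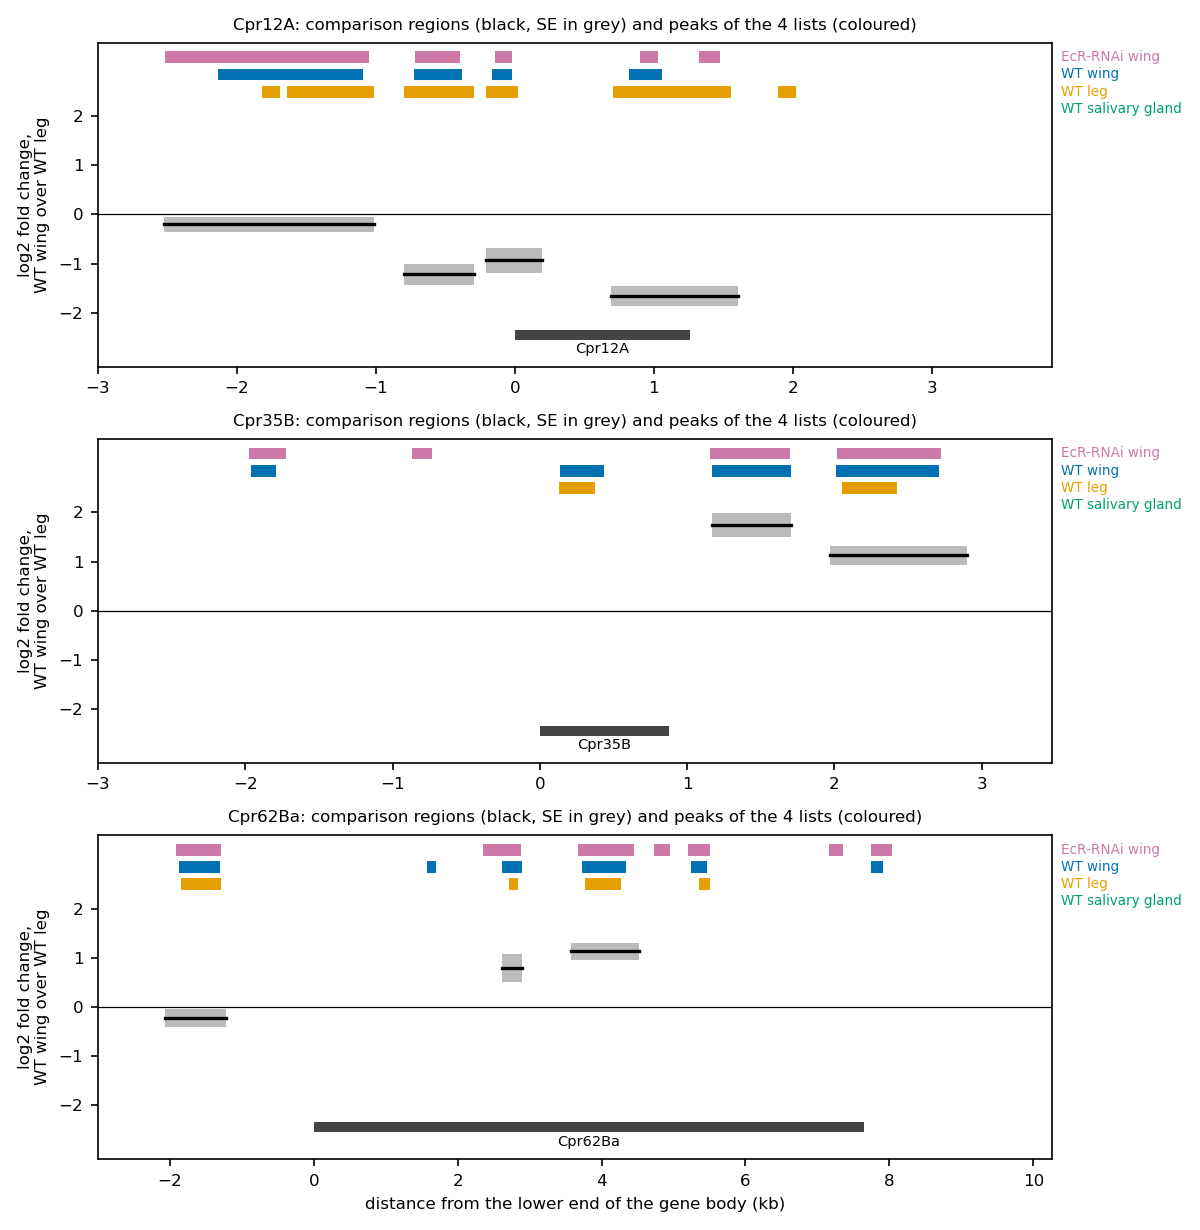
For Cpr12A, Cpr35B and Cpr62Ba, black lines give the log2 fold change of each comparison region, WT wing over WT leg, with the SE in grey, and coloured bars the peaks of the 4 lists, against distance in kb from the lower end of the gene body. The regions over and closest to Cpr12A lie below 0 and both Cpr35B regions above it, and no gland peak is present at any of the 3 genes.

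Against the salivary gland, the calls within 2 kb of cuticle genes ran towards the wing, with a lower share and median fold in a narrower window. Of 39 regions, 14 (35.9%) at 10 genes were higher in wing and 0 in the gland in the authors' deposited table of wing against gland, where 25 of the 39 had a p under 0.05 before adjustment, 23 of them higher in wing. The genes were TwdlE, Cpr35B, Cpr49Ah, Cpr62Ba, Cpr62Bb, Cpr65Aw, Lcp65Aa, Cpr65Ec, Cpr66D and Cpr12A. Over all regions 21.1% were higher in wing and 12.7% in the gland. Within 2 kb of any protein-coding gene the shares were 16.9% and 13.9%, with a median log2 fold of 0.02. Within 500 bp of a member, 3 of 19 regions were higher in wing and 0 in the gland, with a median log2 fold of 0.17, and of the 10 centred in a member's body 1 was higher in wing, with a median of 0.10. Within 5 kb, 21 of 63 were higher in wing and 6 in the gland. The median log2 fold over the 39 regions was 0.77, against 0.18 over all regions. When the folds were centred on the median of all regions, 7 were higher in wing and 1, at Cpr73D, in the gland; the 7 lost were at TwdlE, Cpr35B, Cpr49Ah, Cpr62Bb, Cpr65Aw, Lcp65Aa and Cpr66D, all with deposited log2 folds up to 1.16 by the authors' deposited table. Regions near gene ends, whichever the gene, had a median log2 fold of −0.31. Centred on these, 22 were higher in wing and 0 in the gland.

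In this contrast the fold moved with the mean count of a region. Below the median count of 120, all regions had a median log2 fold of −0.40, and 11.5% were higher in wing and 23.7% in the gland. The 16 regions at cuticle genes in that range had a median of 0.50, with 4 higher in wing and 0 in the gland. Above it, all regions had a median of 0.54, and 30.8% were higher in wing and 1.61% in the gland. The 23 regions at cuticle genes had a median of 0.85, with 10 higher in wing and 0 in the gland. What the count has to do with the fold was not tested.

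**Figure D5:**
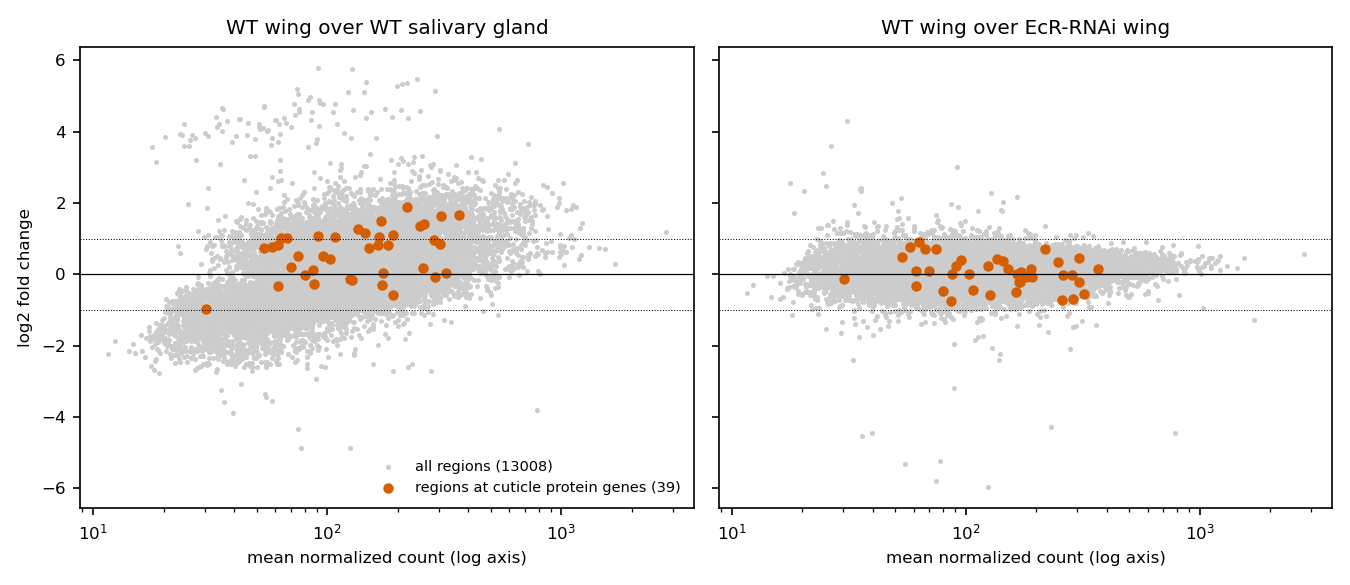
Points give the log2 fold change of each region against its mean normalized count on a log axis, with all 13008 regions in grey and the 39 at cuticle protein genes in orange. In wing over gland (left) the cloud climbs with the count and the orange points sit mostly above 0; in WT wing over EcR-RNAi wing (right) they lie within a log2 fold of 1 on both sides of 0.

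Cpr65Ec, the last of the 3 Cpr65E genes, had the largest wing folds over gland. The region 3L:7094597-7095240 lies in the gene form3 and was 3.68-fold higher in wing over gland (log2 fold 1.88, SE 0.18, adjusted p 9.0e-23, the authors' deposited table). The region 1680 bp from the gene, 3L:7091004-7092044, with the highest mean count of all 39 (366), had a log2 fold of 1.66 (SE 0.17, adjusted p 2.5e-20, the authors' deposited table). Next came Cpr62Ba, at 1.63 (SE 0.17) inside the gene and 1.40 (SE 0.20) in GV1, and the nearer Cpr49Ah region, 2R:12412612-12413163, at 1.5 (SE 0.18), all log2 folds of the authors' deposited table. The gland had no peak at any of these 3 clusters.

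In the Lcp65A cluster, 2 of the 3 regions were called. Beside Cpr65Aw (3L:6141443-6141861) the log2 fold of wing over gland was 1.05 (SE 0.24, adjusted p 4.1e-05) and beside Lcp65Aa (3L:6153367-6154139), where Acp65Aa is the nearest gene, it was 1.09 (SE 0.19, adjusted p 4.9e-08), both in the authors' deposited table. On Lcp65Ad (3L:6143017-6143956) it was 0.17 (SE 0.18) in the authors' deposited table, and not called. The regions without a call included those of 3 genes that had a peak in all 4 lists: Cpr51A (0.05, SE 0.14), Lcp9 (−0.14, SE 0.19) and Cpr47Eg (−0.58, SE 0.16), as log2 folds of wing over gland in the authors' deposited table.

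For leg against gland the share of calls was near that over all regions. Of 39 regions, 10 (25.6%) at 6 genes were higher in leg, at Cpr12A, Cpr65Ec, Cpr62Ba, Cpr62Bb, Cpr49Ah and Cpr47Ed, and 3 (7.69%) were higher in the gland, at Cpr23B, Cpr31A and Cpr73D, in the authors' deposited table. Over all regions 22.6% were higher in leg and 13.3% in the gland, and the median log2 fold was 0.59 over the 39 regions against 0.17 over all. All 4 Cpr12A regions were higher in leg, led by the one 545.5 bp from the gene, which was 5.60-fold higher (log2 fold 2.48, SE 0.22, adjusted p 4.4e-27, the authors' deposited table). Without Cpr12A, calls towards the leg numbered 6 of 35 (17.1%) and towards the gland 3. Within 500 bp, 3 of 19 were higher in leg and 2 in the gland, and within 5 kb 15 of 63 were higher in leg and 8 in the gland. Centred on the median of all regions, 6 were higher in leg and 3 in the gland, the lost ones being at Cpr62Bb, Cpr65Ec and Cpr12A (2 regions). Centred on regions near gene ends, 17 were higher in leg and 1 in the gland, with those of Cpr31A and Cpr73D lost. The fold also moved with the mean count here: the medians of all regions were −0.40 below and 0.58 above the median count, against 0.47 and 0.60 at cuticle genes. Above it, 7 of 23 regions at cuticle genes (30.4%) were higher in leg and 1 in the gland, against 32.9% and 1.86% of all regions. Below it, 3 of 16 were higher in leg and 2 in the gland, against 12.2% and 24.7% of all regions.

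Regions other than those of Cpr12A were called higher in leg than in gland at 5 genes. The Cpr65Ec region in form3 had a log2 fold of 1.91 in leg over gland (SE 0.19, adjusted p 6.8e-23, the authors' deposited table), and the Cpr62Ba region in GV1 1.63 (SE 0.20, adjusted p 2.4e-15, the authors' deposited table). The second Cpr65Ec region had 1.08 (SE 0.18, adjusted p 1.4e-08), against 1.66 in wing over gland, in the authors' deposited table, and its wing over leg log2 fold was 0.58 (SE 0.17, adjusted p 0.011). The region beside Cpr47Ed, 2R:11262252-11262566, was called in leg over gland (log2 fold 1.28, SE 0.27, adjusted p 1.0e-05, the authors' deposited table) and not in wing over gland, where its log2 fold was 0.77, nor in wing over leg, where it was −0.52, in the authors' deposited table.

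Of the 3 regions higher in the gland, those of Cpr23B and Cpr31A were also called between wing and leg, lower in leg. The Cpr23B region in CG2975 had a log2 fold of −1.38 in leg over gland (SE 0.20, adjusted p 3.7e-11) and −0.31 in wing over gland in the authors' deposited table. The Cpr31A region near the gene body had −1.12 (SE 0.29, adjusted p 2.3e-04) in leg over gland and 0.11 in wing over gland in the authors' deposited table. At Cpr73D the region 3L:16956082-16956216, which also lies in Ogdh, had −1.30 (SE 0.36, adjusted p 0.0013) in the authors' deposited table, with the lowest mean count of the 39 (30.3). This Cpr73D region overlapped no peak of any list. The Cpr31A region overlapped no gland peak, while the Cpr23B region did.

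Markers of other cell types mostly moved the same way, on thin coverage for 2 of the types. Beside their counts, the shares over all regions were 21.1% higher in wing and 12.7% in the gland. For leg against gland they were 22.6% and 13.3%. In the authors' deposited table of wing against gland, 12 of 16 regions at tracheal markers, 16 of 35 at adepithelial myoblast markers, 2 of 3 at haemocyte markers and 2 of 4 at fat body markers were higher in wing, with 4 of the myoblast regions higher in the gland. For leg against gland the counts were 11, 13, 2 and 2, with 5 myoblast regions higher in the gland, in the authors' deposited table. Only 2 of 5 haemocyte and 2 of 5 fat body markers had a region, and the fat body calls were all at Lsp1gamma. The myoblast marker htl was called only towards the gland. The part of these cell types in the values of the cuticle genes was not tested.

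RNAi against EcR gave no called region at these genes. Of 39 regions, 0 were higher in EcR-RNAi wing and 0 in WT wing past both thresholds in the authors' deposited table, where 13 had a p under 0.05 before adjustment, 6 higher in EcR-RNAi wing and 7 in WT wing. Over all regions 0.789% were higher in EcR-RNAi wing and 1.24% in WT wing, so a count of 0 of 39 is close to what those shares give. The deposited fold is WT wing over EcR-RNAi wing, so a negative value is higher in EcR-RNAi wing. Its median over the 39 regions was 0.02, against 0.08 over all regions. For 29 of the 39, the 95% interval of the log2 fold, taken from its SE, lay within 1 of 0, and the outermost bounds of the other 10 were −1.23 and 1.46. Centring the folds on either set of regions left the count at 0.

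By the adjusted p alone, 8 regions differed by less than 2-fold, 4 in each direction. Over all regions that rule gave 5.38% higher in EcR-RNAi wing and 10.4% higher in WT wing. Higher in EcR-RNAi wing were the regions of Cpr31A (log2 fold −0.76, SE 0.24, adjusted p 0.018), Lcp65Ad (−0.71, SE 0.18, adjusted p 0.0033), TwdlT (−0.70, SE 0.17, adjusted p 0.0015) and Cpr51A (−0.56, SE 0.14, adjusted p 0.0025) in the authors' deposited table. The TwdlT region lies in the body of RYa-R, 473 bp from TwdlT. All 4 of these genes had a peak in EcR-RNAi wing, WT wing and WT leg.

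Lower in EcR-RNAi wing were the regions of Cpr62Bb (log2 fold 0.89, SE 0.29, adjusted p 0.021), Cpr47Ed (0.77, SE 0.28, adjusted p 0.044), TwdlE (0.70, SE 0.25, adjusted p 0.040) and Cpr65Ec in form3 (0.70, SE 0.18, adjusted p 0.0025) in the authors' deposited table. The TwdlE region is nearer to lectin-28C than to TwdlE. Centred on the median of all regions, the TwdlE (0.62) and Cpr47Ed (0.69) regions no longer passed the adjusted p. The loci that differed most between wing and leg did not pass the adjusted p here: Cpr35B had log2 folds of 0.23 and 0.34 and the 4 Cpr12A regions between −0.02 and 0.43, with SEs of 0.15 to 0.27, in the authors' deposited table.

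In the peak lists, 37 members had a WT wing peak and no EcR-RNAi wing peak, and 6 had the reverse. The matching counts over all protein-coding genes were not taken. Of all these genes, 64.4% had an EcR-RNAi wing peak and 76.7% a WT wing peak. Those 37 included 9 Twdl genes of the TwdlM to TwdlD cluster and all 3 Cpr67F genes. The longer WT wing list bears on these counts, since at equal list length 48 members had a peak in EcR-RNAi wing and 43 in WT wing. At that length none of those 9 Twdl genes kept a WT wing peak, the best of them ranking 18809 by q.

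Other genes of the cuticle pathway were read in the same tables. For scale, 21.1% of all regions were higher in wing than in gland and 12.7% the reverse. For leg against gland these shares were 22.6% and 13.3%. Of 26 regions at other cuticle and apical matrix genes (28 of 31 symbols matched), 9 were higher in wing and 2 in the gland, while 10 were higher in leg and 2 in the gland, by the authors' deposited table of each contrast. The strongest were at obst-A, a chitin-binding protein of the obstructor family (log2 fold 1.92, SE 0.18, in wing over gland and 2.14, SE 0.18, in leg over gland), and at pio, a zona pellucida protein (1.92, SE 0.19, and 2.28, SE 0.19, in the authors' deposited table). Between wing and leg 1 was called, higher in leg, at the zona pellucida gene m (log2 fold −2.38, SE 0.19, the authors' deposited table). In the RNAi contrast, dyl was higher in EcR-RNAi wing (log2 fold −1.02, SE 0.23) and pio in WT wing (1.05, SE 0.19) in the authors' deposited table. Over all regions 0.789% were called higher in EcR-RNAi wing and 1.24% in WT wing.

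At chitin synthesis, chitin turnover and sclerotization genes (35 of 39 matched, 56 regions), 17 were higher in wing and 3 in the gland, while 18 were higher in leg and 2 in the gland, by the authors' deposited table of each contrast. They were led by the deacetylase-like gene Cda4 (log2 fold 1.92, SE 0.16, in wing over gland, the authors' deposited table) and the chitinase gene Cht6 (2.32, SE 0.20, in wing over gland, the authors' deposited table). Between wing and leg 0 of the 56 were called, and 4 higher in wing and 6 in leg had an unadjusted DESeq2 p under 0.05 in the authors' deposited table. Between EcR-RNAi wing and WT wing 0 were called, and 11 higher in EcR-RNAi wing and 9 in WT wing had such a p in the authors' deposited table. Of all 13008 regions, 1468 and 2664 did. Of 213 regions at 19 genes that regulate cuticle timing, such as br and grh, 50 were higher in wing and 22 in the gland. The shares over all regions were 21.1% and 12.7%. Between wing and leg 1 of the 213, at Eip93F, was called, on the side of the leg, by the authors' deposited table of each contrast. In the RNAi contrast 5 of the 213 were higher in EcR-RNAi wing, at EcR, ftz-f1, Eip93F and Eip78C, in the authors' deposited table. There 4 were higher in WT wing, at EcR, br, Blimp-1 and Eip74EF, beside shares over all regions of 0.789% in EcR-RNAi wing and 1.24% in WT wing.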

How the data were processed

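Per the submitters' processing notes, the tools were MACS2 2.1.2, bedtools 2.26, Picard 2.2.4, SAMtools 1.9, Bowtie2 2.3.4.1, R 3.5.2 and DESeq2 (no version), and the build was dm6. The peak names carry tags for trimming, duplicate removal and, for gland alone, a size range. How each was set is not given in the sources used. The authors deposited, per peak, a fold enrichment (ratio), a score, and a −log10 p-value and −log10 q-value. The authors deposited, per region and comparison, a mean normalized count (a signal), a log2 fold change with its SE, a test statistic (score) and a p-value, raw and adjusted, all from DESeq2 per the submitters' processing notes. The SE sets the precision, since no count per library was used and the depth is unknown.

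Genes came from the RefSeq table, and 3 pseudogenes that match the symbols were left out. Members and lists were chosen with earlier results of these data known. Centres were matched to gene bodies, peaks overlapped and counts made with Python 3.11.15, pandas 2.3.3, numpy 2.4.6 and scipy 1.17.1; no model was refitted. For the centred alternatives, p was recomputed from the shifted fold and SE with Benjamini-Hochberg adjustment, a step tested on simulated data. By rule, the text names the gene of every called region, up to 15 per table, and per cluster the region of highest count and the peak of highest fold in each list; of other lists, at most 5 genes per table are named with values. Alternatives changed the fold and p thresholds, the window (500 bp, 5 kb), the nearest gene, the centring, a minimum count of 50, the peak threshold, summit and overlap, and the cluster gap.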

Additional observations from a re-analysis of the deposited data

How the results depend on the processing

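The tables hold no value per library, so no library could be left out and no fit repeated. No paired analysis was possible because the comparison tables give no value per replicate. Of the results that answer a comparison, 31 recomputed values were marked as moved and 63 were not, though some of the 63 shifted too. Among these, WT wing members with a peak fell from 81 to 54 (500 bp) and 57 (nearest gene, 51.8% of members). In WT leg they fell from 75 to 51 and 53 (48.2%), and to 54 at a −log10 q of at least 5. In EcR-RNAi wing they fell from 50 to 36 at that q. Of 126 recomputed values of single regions 19 no longer passed the rule they had passed as deposited, and 0 turned round. In the RNAi contrast, where no region was called, that rule was the adjusted p alone. Without a fold threshold the calls were 11 in wing against leg (main 7), 24 between wing and gland (main 14), 27 for leg against gland (main 13) and 8 in EcR-RNAi wing against WT wing (main 0). With centres within 500 bp they were 3, 3 and 5 in the first 3 contrasts, wing against gland then having a median of 0.1722 (log2; main 0.77). Within 5 kb they were 27 for wing against gland (21 in wing, 6 in gland), 23 for leg against gland (15 in leg, 8 in gland) and 1 in the RNAi contrast, with a median of 0.4985 in wing against gland. With a member as the nearest gene, 9 were called in wing against gland. Centring on the median of all regions gave 8 there, and centring on regions near gene ends, which shifts wing and leg over gland by 0.31, gave 22, with medians of 1.0765 in wing and 0.8959 in leg over gland. Members with a peak numbered 32 (500 bp) and 33 (nearest gene, added after seeing the data) in EcR-RNAi wing, 43 in WT wing at a −log10 q of at least 5 and also at equal list length (added after seeing the data), 49 in WT leg at equal length, and 11 (−log10 q), 10 (500 bp) and 8 (nearest gene) in the gland. With a reciprocal overlap of 50%, the shares were 56.962% of EcR-RNAi wing peaks shared with WT wing, 36% of WT wing peaks with EcR-RNAi wing (61.6667% at a −log10 q of at least 5), 54.4% of WT wing with WT leg, 3.2% of WT wing with gland and 64.7619% of WT leg with WT wing. The other additions after seeing the data, genes of like length and leaving out Cpr12A, stand beside their results. The cause of these moves was not tested, beyond the windows and thresholds admitting more or fewer regions.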
